A study of Mus musculus with 6 samples.

Results

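Dbp, Tef, Hlf, Ciart, Bhlhe40, Bhlhe41, Nfil3 and Rora are 8 genes that carry the signal of the circadian clock to its target genes or feed it back to the clock. They were picked by gene symbol and make up 8 of the 49671 genes in the table. RNA was sequenced from basal keratinocytes of the mouse ear, from males left intact, from females and from castrated males, all of the outbred CD1 stock, in 2 libraries a group and 6 in all. Sorting took cells with integrin alpha 6 and without CD34, which marks the bulge of the hair follicle, and every library held 100000 cells from 2 mice of 1 litter. The labels name no other genotype or treatment in any group. The litter of a pool and its group cannot be told apart, and p-values here measure only the spread between such pools. The age of the mice and the hour at which the ears were taken, on which transcripts of clock genes depend, are both not given in the sources used here. Before sorting, the skin was kept in trypsin overnight in the cold.

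In the circadian clock, the activators CLOCK and BMAL1 (encoded by Arntl) bind E-box elements and turn on the Per and Cry genes, whose proteins then shut the activators down. Dbp, Tef and Hlf are the PAR bZIP transcription factors, clock-driven activators that bind D-box elements, and Nfil3 is a repressor that binds the same elements. Bhlhe40 and Bhlhe41 are repressors that bind E-boxes, and Ciart is a repressor that binds the CLOCK and BMAL1 complex. Rora is a nuclear receptor that activates Arntl through a response element for which the repressors Nr1d1 and Nr1d2 compete. Rora is the only receptor of its family among the 8 genes. The epidermis has a clock of its own that times proliferation and differentiation of its basal cells.

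Promoter sequences with the canonical E-box, the element of the clock activators, are shown because Ciart and Bhlhe41, the members with the largest differences between the sexes, both hold it. This choice followed the results, and a part of the E-box in these differences was not tested. RefSeq promoter windows of the build GRCm38.p6, which reach from 250 bases before to 50 bases after a transcription start, matched 7 of the 8 genes, Bhlhe40 being the gene without a match. The palindrome CACGTG was found in the windows of 3 of these 7 genes, Ciart, Bhlhe41 and Tef. Counted by window, it was in 4 of their 8 windows, 2 of them of Tef, and in 7.15% of all 32851 windows. Each stretch below is written 5′ to 3′ on the strand of its gene, covers the bases of the window that lie outside the exons annotated by GENCODE for that gene, and has the E-boxes in capitals. The Ciart stretch lies at chr3:95882252-95882478 on the minus strand, the Bhlhe41 stretch at chr6:145865559-145865670 on the minus strand, and the Tef stretch, before one of its 2 RefSeq starts, at chr15:81811164-81811413 on the plus strand.
Ciart: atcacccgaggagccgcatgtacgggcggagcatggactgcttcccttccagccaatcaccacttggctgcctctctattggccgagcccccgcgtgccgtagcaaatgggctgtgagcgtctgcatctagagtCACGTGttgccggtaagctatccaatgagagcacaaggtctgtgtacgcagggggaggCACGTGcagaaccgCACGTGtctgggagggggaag
Bhlhe41: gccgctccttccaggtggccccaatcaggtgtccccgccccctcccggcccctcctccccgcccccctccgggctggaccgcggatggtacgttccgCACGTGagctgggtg
Tef: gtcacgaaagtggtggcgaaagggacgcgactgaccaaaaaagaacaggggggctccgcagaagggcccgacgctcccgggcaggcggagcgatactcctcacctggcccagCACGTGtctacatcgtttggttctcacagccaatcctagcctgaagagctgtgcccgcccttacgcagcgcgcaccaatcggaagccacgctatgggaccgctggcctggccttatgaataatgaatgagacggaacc

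Ciart held 3 E-boxes, whose first bases lay 116, 58 and 44 bases before its start, and 3 or more were found in 29 windows of all genes, or 0.0883%. The single E-box lay 153 bases before the start in Bhlhe41 and 138 bases before it in the Tef stretch shown. Tef held a further E-box, 127 bases before its other RefSeq start. All distances run to RefSeq starts, while the Ciart and Bhlhe41 stretches end further upstream, where GENCODE exons begin. The further E-box of Tef, and the Nfil3 match given below, lie inside the genes as GENCODE annotates them. Both strands were searched for the D-box as TTATGTAA or TTACGTAA, which was found in none of the 7 genes and in 1.06% of all windows. The ROR response element was searched on both strands as TAGGTCA or TGGGTCA. It was found only in Nfil3, 12 bases before its RefSeq start, in 1 of the 8 windows, and in 6.45% of all windows. A match describes the letters of a window and is not a binding site. Hlf, called lower in females below, held no E-box, and Tef held it without passing the test. Of 9 core clock genes with a window, 2 held the E-box, Cry1 and Per1, in 2 of 13 windows.

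The libraries held between 8412487 reads (female replicate 2) and 9648154 reads (female replicate 1), and 15413 genes had enough reads to be tested. Values are counts per 1000000 reads (CPM) after scaling of library sizes, given as mean ± SD (n = 2 libraries in a group). A count of 0 allows up to 3 reads, which were worth 0.307 to 0.385 CPM, counting error only. Xist stood at 0.336 ± 0.0233 CPM in the intact males, 180 ± 39.3 CPM in the females, and 0.740 ± 0.241 CPM in the castrated ones. Krt5, a keratin of basal cells, stood at 10730, 12270 and 10910 CPM in the means of males, females and castrated males, and Cd34 between 2.27 and 2.67 CPM in the group means. Other bulge markers stood higher or alike. In the same order of groups, Lgr5 had means of 29.6, 17.9 and 22.4 CPM, with both females below both intact males. Sox9 had 37.8, 35.3 and 30.7 CPM, and Lhx2 lay between 2.27 and 2.38 CPM. Libraries of a group differed beyond sampling noise (chi-square over its degrees of freedom 12.9 for the males, 13.6 for the females, 4.79 for the castrated). In bulk RNA, fewer cells of a type and less RNA per cell cannot be told apart.

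In GRCm38 with the GENCODE annotation, all 8 members are protein-coding genes. Dbp (ENSMUSG00000059824) lies on chromosome 7 at 45705088 to 45710203, Tef (ENSMUSG00000022389) on chromosome 15 at 81802421 to 81826863 and Hlf (ENSMUSG00000003949) on chromosome 11 at 90336536 to 90390895. Nfil3 (ENSMUSG00000056749) lies on chromosome 13 at 52967209 to 52981073 and Ciart (ENSMUSG00000038550) on chromosome 3 at 95878503 to 95882251. Bhlhe40 (ENSMUSG00000030103) and Bhlhe41 (ENSMUSG00000030256) lie far apart on chromosome 6, at 108660629 to 108666925 and 145858243 to 145865558, and Rora (ENSMUSG00000032238) spans 68653786 to 69388246 on chromosome 9. Besides Dbp, treated below, Tef, Bhlhe40, Bhlhe41 and Rora share 82 to 1280 exon bases with a gene on the opposite strand. These opposite genes had at most 326 reads in a library.

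All members but Nfil3 had ample reads in these cells, though Dbp has the exon overlap treated below. Per kilobase of annotated exon, mean levels over the 6 libraries were 40.1 CPM per kb for Bhlhe40, 39.1 for Ciart, 30.7 for Tef, 29.7 for Rora, 25.8 for Hlf, 11.9 for Bhlhe41, 8.89 for Dbp and 0.368 for Nfil3. In intact males Ciart stood at 48.6 ± 0.848 CPM per kb and Bhlhe40 at 47.6 ± 2.92, which did not differ beyond their spread. Tef at 35.6 ± 7.01, Rora at 34.9 ± 2.7 and Hlf at 31.3 ± 1.4 CPM per kb likewise lay within the spread of Tef, and Bhlhe41 at 15.5 ± 2.09 and Dbp at 7.30 ± 2.72 lay below them. Nfil3 was close to absent at 4 to 11 reads in a library, too few to be tested.

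**Figure D1:**
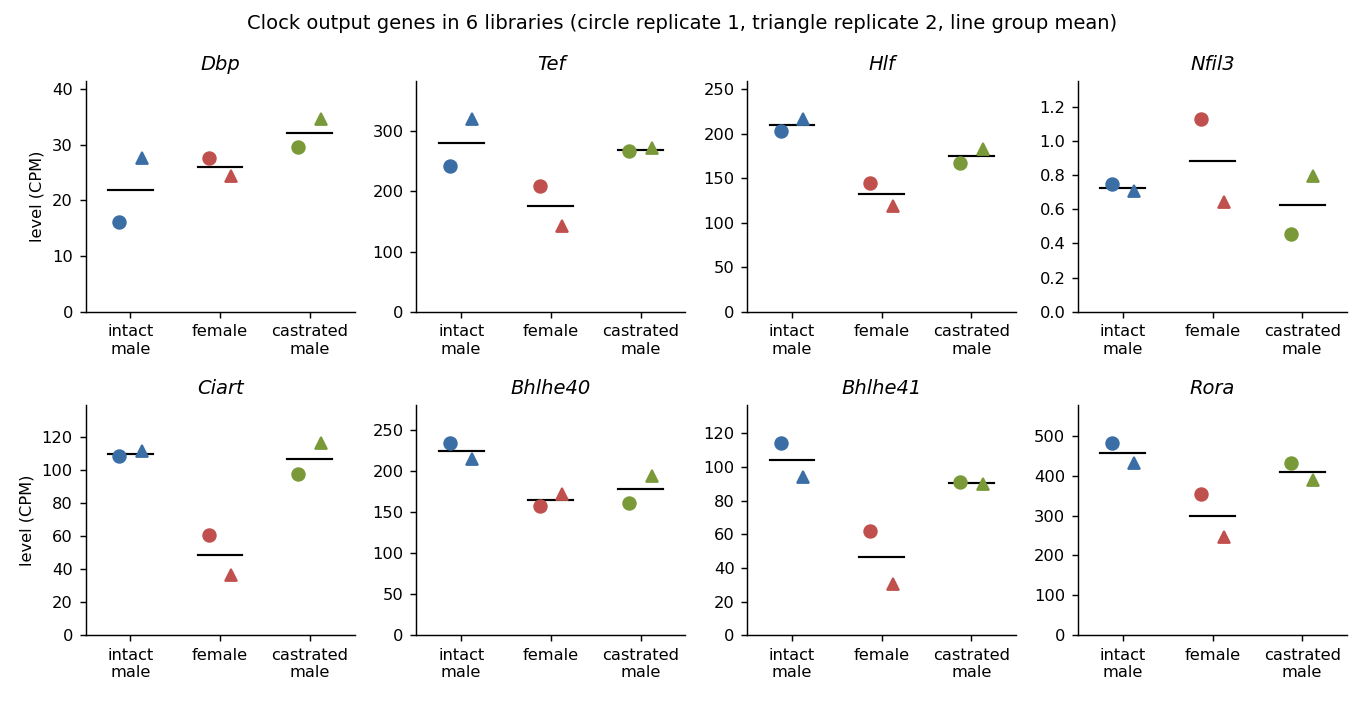
Level of each of the 8 genes in every library, in CPM on a linear axis of its own that starts at 0, by group (intact male, female, castrated male), with a circle for replicate 1, a triangle for replicate 2 and a line for the group mean. Tef, Hlf, Ciart, Bhlhe41 and Rora are lower in both females than in every other library, Dbp is lowest in a male, and Nfil3 lies between 0.455 and 1.12 CPM.

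In the comparison of females with intact males, the question was how the sexes differ. Of the 7 members tested, 3 passed the test and all 3 were lower in females: Ciart, Bhlhe41 and Hlf. Among all genes 6.1% were called in this comparison, 2.39% as lower and 3.7% as higher. The log2 fold change (difference of group means of log2(CPM + 0.5), limma, with the adjusted p over all 15413 genes) was negative in 6 of the 7 members, with a median of -0.67 beside -0.01 for all genes tested. In the same 6 members both females lay below both males, as in 27.2% of all tested genes, with 26.6% the other way round. Dbp was the exception. These 3 calls rest on few libraries: all were lost without female replicate 2, without male replicate 2 or without either castrated library. Only that of Ciart held without male replicate 1. With no filter on low values, no trend in the prior or only the 2 groups compared in the fit, all 3 were lost as well. Without female replicate 1 the median log2 fold change of the 7 members was -0.88, beside -0.006 for all genes tested.

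**Figure D2:**
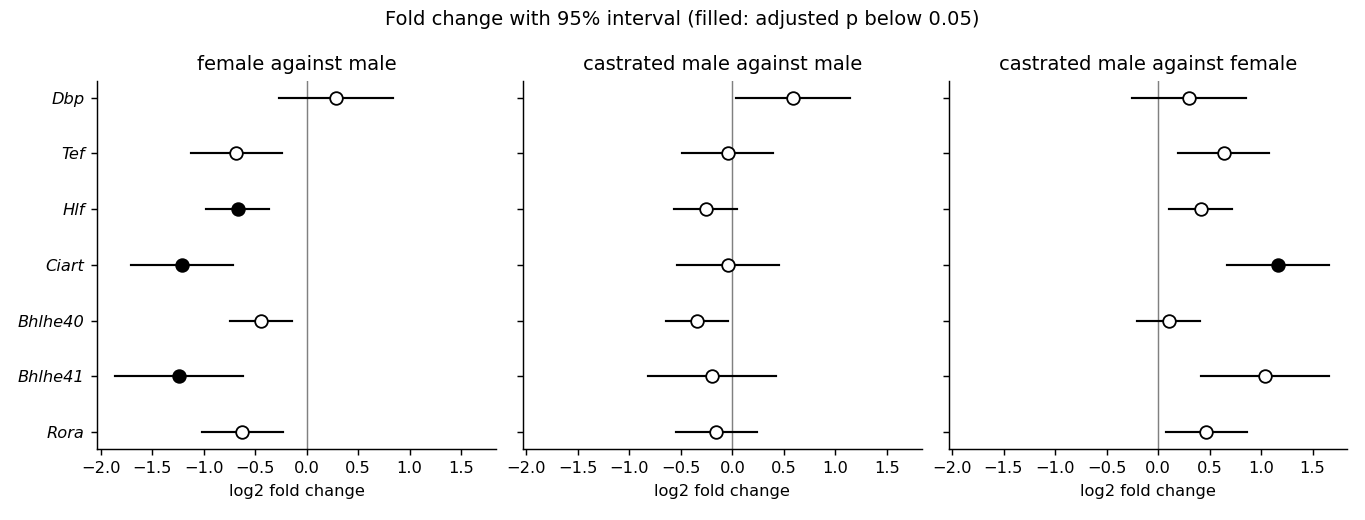
Log2 fold change of the 7 tested members in each of the 3 comparisons, with bars for 95% confidence intervals from limma and filled points for called genes. For females against males Ciart, Bhlhe41 and Hlf are called and lie left of 0, Dbp lies right of 0, and for castrated against intact males 5 of the 7 intervals span 0.

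Among the PAR bZIP activators, Hlf was lower in females, Tef differed by as much without passing the test, and Dbp had a positive log2 fold change. Hlf had 203 and 216 CPM in the intact males, 145 and 119 in the females, and 167 and 183 in the castrated ones. The 3 groups did not overlap, with females lowest and intact males highest. Hlf was 1.59-fold higher in males than in females (log2 fold change for females -0.67 ± 0.13 SE, adjusted p = 0.0277, limma). Its call was lost when any library other than female replicate 1 was left out, with a log2 fold change of -0.53 and an adjusted p of 0.171 without female replicate 2.

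Tef had 241 and 319 CPM in the intact males, 209 and 143 in the females, and 266 and 272 in the castrated ones. Both females lay below the other libraries, and the intact and castrated males overlapped. The log2 fold change of females against males was -0.68 ± 0.20 (95% interval -1.12 to -0.24), as large as that of Hlf, with an adjusted p of 0.0739 by limma. Without female replicate 1 it was -0.95 and called (adjusted p = 0.0196, limma), and the adjusted p reached 0.41 without female replicate 2.

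Dbp, often used as the readout of clock output because its rhythm is steep, was the member that did not share the direction of the others. It had 16.1 and 27.6 CPM in the intact males, 27.5 and 24.4 in the females, and 29.6 and 34.5 in the castrated ones. Male replicate 1 was the lowest library and the males overlapped the females, while both castrated libraries lay above all others. The log2 fold change of females against males was 0.29 ± 0.24 (adjusted p = 0.505, limma), and it was -0.08 without male replicate 1. Exons of Dbp share 539 bases with those of Sphk2 on the opposite strand, which had 631 to 718 reads in a library against 151 to 303 for Dbp, and the strand setting of the counting is not known here. How far this overlap raised or lowered the values of Dbp was not tested.

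The values of these 3 genes can also be put as the makeup of the PAR bZIP transcripts in each library. Of the sum of Dbp, Tef and Hlf per kilobase, Dbp made up 8.10% and 11.2% in the intact males, 16.0% and 18.5% in the females, and 14.4% and 15.7% in the castrated ones. The share of Dbp was lowest in both intact males and highest in both females, without overlap of the groups. The sum itself was 66.4 and 82.1 CPM per kb in the intact males, 57.5 and 44.1 in the females, and 68.8 and 73.5 in the castrated ones, lowest in both females. These shares were computed after the values of the 3 genes were seen and carry no test. They restate those values, and the effect of the overlap with Sphk2 on the share of Dbp was not tested.

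Nfil3, the repressor that binds the same D-box elements, had 0.746 and 0.705 CPM in the intact males, 1.12 and 0.641 in the females, and 0.455 and 0.797 in the castrated ones. The groups overlapped and every value came from 11 reads or fewer, so a difference was not detectable at this depth.

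**Figure D3:**
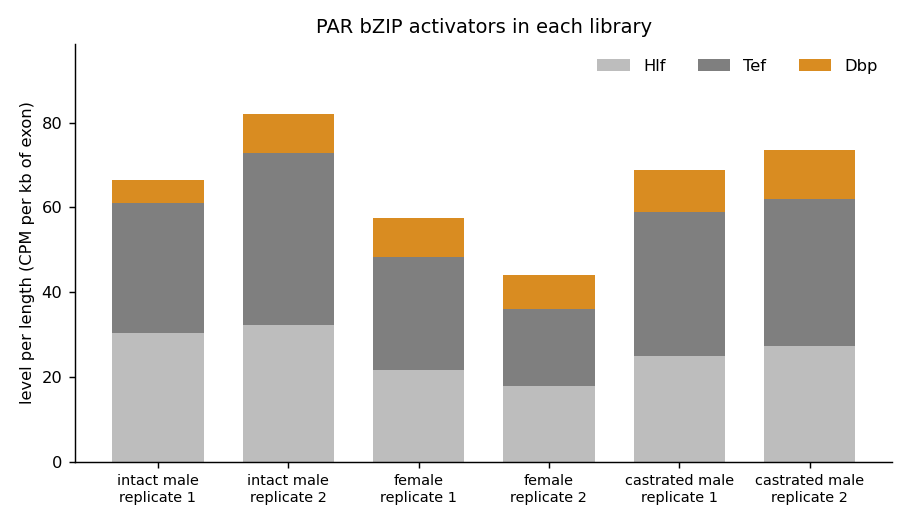
Levels per kilobase of exon of Hlf, Tef and Dbp (CPM per kb) stacked in a bar for each of the 6 libraries. The bars of both females are the shortest, and the share of Dbp in a bar is 8.10% and 11.2% in the intact males and 16.0% and 18.5% in the females, with the castrated males at 14.4% and 15.7%. Dbp is shown without correction for its exon overlap with Sphk2.

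Of the repressors, Ciart and Bhlhe41 had the largest differences between the sexes among the members, both lower in females by more than 2-fold. Ciart had 108 and 111 CPM in the intact males, 60.9 and 36.4 in the females, and 97.5 and 116 in the castrated ones. Both females lay far below the other 4 libraries, among which intact and castrated males overlapped. The ratio of male to female was 2.32 (log2 fold change for females -1.21 ± 0.22, 95% interval -1.71 to -0.71, adjusted p = 0.0214, limma), and 1.84% of tested genes had a lower log2 fold change. Without female replicate 2, the lower of the females, the log2 fold change was -0.85 with an adjusted p of 0.0988. The call was also lost without male replicate 2 (adjusted p = 0.058, limma) and without castrated male replicate 1 or 2 (adjusted p = 0.0661 and 0.0519, limma). The promoter window of Ciart, shown above, held 3 E-boxes, and their part in its values was not tested.

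Bhlhe41 had 114 and 94.1 CPM in the intact males, 62.1 and 30.8 in the females, and 90.8 and 89.8 in the castrated ones. Females were lowest again, and female replicate 2 stood below every other library. The male to female ratio was 2.35 (log2 fold change for females -1.23 ± 0.27, 95% interval -1.86 to -0.61, adjusted p = 0.037, limma). Without female replicate 2 it was -0.74 with an adjusted p of 0.137, and the call was also lost without either male library (adjusted p = 0.104 and 0.0655, limma) and without either castrated library (0.103 and 0.0831).

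Bhlhe40, the close relative of Bhlhe41, differed less. Its values were 234 and 214 CPM in the intact males, 157 and 172 in the females, and 161 and 194 in the castrated ones. Both intact males lay above all other libraries, and females and castrated males overlapped. The log2 fold change of females against males was -0.44 ± 0.13 with an adjusted p of 0.0843 by limma, and Bhlhe40 was the only member lowest in female replicate 1. The ratio of Bhlhe41 to Bhlhe40 in CPM was 0.488 and 0.439 in the intact males, 0.395 and 0.179 in the females, and 0.563 and 0.464 in the castrated ones, so it was lower in both females, most of all in replicate 2.

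Rora had 481 and 431 CPM in the intact males, 353 and 247 in the females, and 430 and 388 in the castrated ones. Both females lay below all other libraries and the castrated males just under the intact ones. The log2 fold change of females against males was -0.62 ± 0.17 with an adjusted p of 0.0674 by limma, and without female replicate 1 it was -0.88 and called (adjusted p = 0.0117, limma), while the adjusted p reached 0.339 without female replicate 2. 

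Castrated males were compared with intact males, using the same intact libraries as the comparison above, to ask what removal of the testes changes. No member passed the test: limma called 0 of 7, with 2 at an unadjusted p below 0.05 (Bhlhe40 and Dbp), and voom weights called 0 with 2 unadjusted as well. Among all genes 0.0389% were called, 0.013% as higher and 0.026% as lower. Dbp was higher in both castrated libraries than in both intact ones (log2 fold change 0.59 ± 0.24, adjusted p = 0.823, limma). Bhlhe40 was lower in both (-0.34 ± 0.13, adjusted p = 0.794, limma), as were Hlf (-0.26 ± 0.13), Bhlhe41 (-0.20 ± 0.27) and Rora (-0.16 ± 0.17). Among all tested genes 17.3% lay without overlap on the higher side and 18.2% on the lower side. Tef and Ciart were each at -0.04, and the 95% interval for Ciart was -0.54 to 0.45.

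Castrated males were also compared with females, the female libraries being those used above. The 7 tested members had positive log2 fold changes with a median of 0.47, beside 0.01 for all genes tested, though that of Bhlhe40 turned to -0.034 without castrated male replicate 2. Ciart alone passed the test (log2 fold change 1.17 ± 0.22, 95% interval 0.67 to 1.66, adjusted p = 0.0415, limma), while 1.73% of all genes were called, 0.571% as higher and 1.15% as lower. Its call was lost without female replicate 2 (0.80, adjusted p = 0.174, limma) and without castrated male replicate 1 or 2 (adjusted p = 0.299 and 0.276). It was also lost with voom weights (adjusted p = 0.0603) and with the replicate block (adjusted p = 0.0654).

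The other members did not pass. Bhlhe41 stood at 1.04 ± 0.27 (adjusted p = 0.092, limma), Tef at 0.64 ± 0.20 (0.12), Hlf at 0.41 ± 0.13 (0.133) and Rora at 0.47 ± 0.17 (0.169). In 6 of the 7 members both castrated libraries lay above both females, as in 29.4% of all tested genes (28.3% the other way round), and the exception was Bhlhe40 (0.10, adjusted p = 0.686, limma). Without female replicate 1 the median log2 fold change of the 7 members was 0.73, beside 0.0096 for all genes tested.

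**Figure D4:**
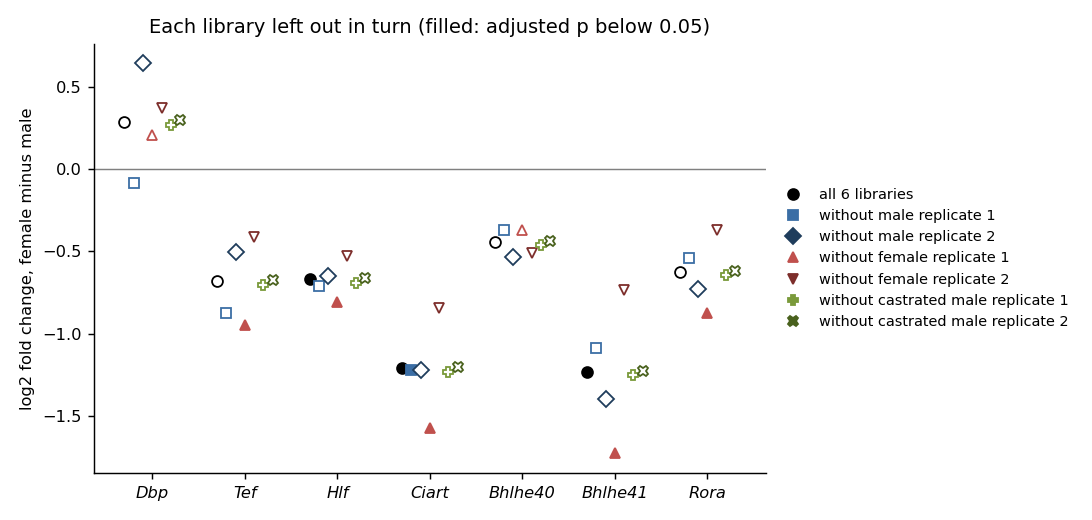
Log2 fold change of each tested member for females against males with all 6 libraries and with each library left out in turn, with a filled marker where the adjusted p is below 0.05. Without female replicate 2 (Ciart at -0.85) no marker is filled.

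Female replicate 2 was the lowest of the 6 libraries for 5 of the 8 members, Tef, Hlf, Ciart, Bhlhe41 and Rora. The share of all tested genes that were lowest in this library was not computed, so the count has no background beside it. The factor that scaled its library size was 0.927, beside 1.005 to 1.032 in the other libraries. SDs in intact males, females and castrated males were 14.05, 22.1 and 0.659 CPM for Bhlhe41 and 55.1, 46.8 and 3.90 CPM for Tef. They were 9.36, 18.6 and 11.15 CPM for Hlf, 1.92, 17.3 and 13.2 CPM for Ciart, and 35.2, 75.0 and 29.8 CPM for Rora. The females were spread more widely than the castrated males in these 5 genes. The genes were picked by their low value in female replicate 2, so a wide spread in females is partly built in. Over the 6 libraries these members followed each other, as Pearson's r of 0.988 for Bhlhe41 with Rora, 0.968 for Ciart with Bhlhe41, 0.944 for Tef with Ciart and 0.910 for Tef with Hlf describe. The 6 points share the library and the group. Dbp followed none of these 5, with r between -0.193 and 0.245.

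Other genes of the clock were taken from a list chosen by function. This list and those below were drawn up with earlier results of these data known, so their counts are not independent of the data. Of 10 tested core clock genes limma called 3, each lower in females, and 9 of 10 log2 fold changes were negative with a median of -0.63. The called genes were Per1 (-1.16, adjusted p = 0.0208), a repressor of the loop, Cry2 (-0.90, adjusted p = 0.0276), its partner, and Npas2 (-1.37, adjusted p = 0.0426), an activator related to CLOCK that had 7 to 36 reads in a library. Limma called 0 of the 10 without female replicate 2 or without either castrated library, 1 without male replicate 1, 2 without male replicate 2 and 5 without female replicate 1. It also called 0 with no filter on low values, no trend in the prior or only the groups compared in the fit. The activators Arntl and Clock were at -0.35 (adjusted p = 0.295, limma) and 0.06 (adjusted p = 0.816, limma), and the value of Clock was -0.00079 without male replicate 1. Castrated against intact males gave 0 called and a median of -0.17, and castrated males against females 0 called and a median of 0.56.

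Per1 had 276 and 173 CPM in the intact males, 107 and 88.3 in the females, and 163 and 149 in the castrated ones. Female replicate 2 was lowest and male replicate 1 highest, and the castrated males lay between the sexes. The ratio of Ciart to Nr1d1, the repressor opposed to Rora, was 0.304 and 0.309 in the intact males, 0.185 and 0.166 in the females, and 0.299 and 0.272 in the castrated ones. The ratio was lower in both females than in every other library, and it carries no test.

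**Figure D5:**
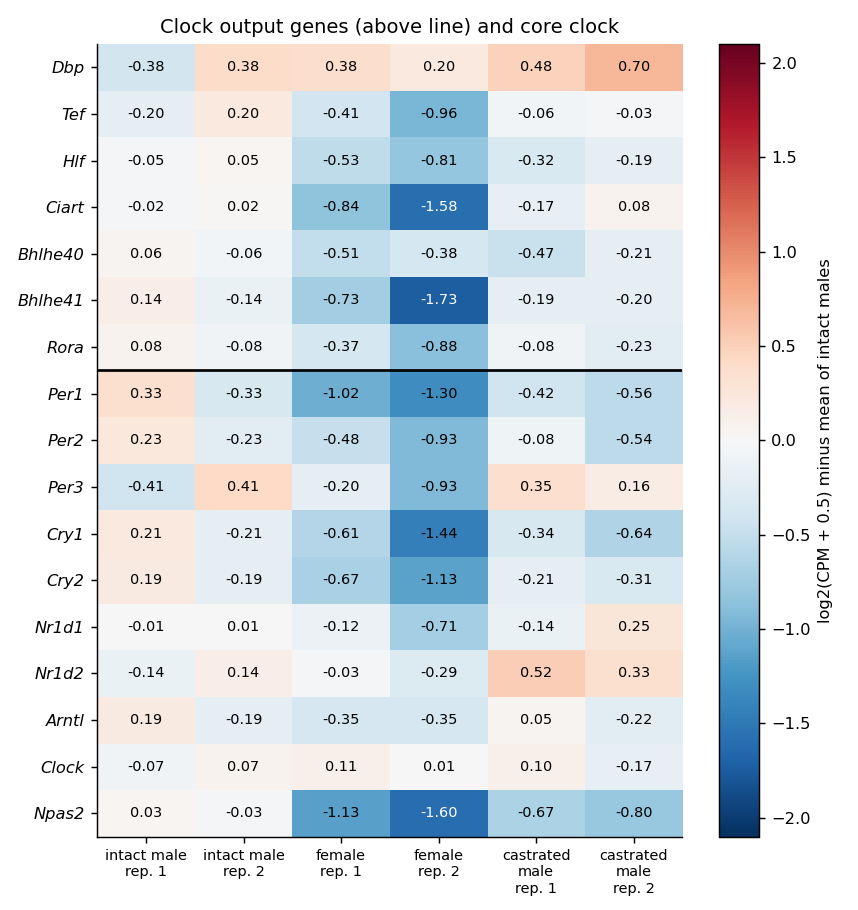
Level of each member and of the core clock genes in every library relative to the mean of the intact males, as a difference of log2(CPM + 0.5) in colour and digits, with the 7 tested members above the line and the core clock genes below it. In female replicate 2 Ciart is at -1.58 and Bhlhe41 at -1.73, and Dbp is the member above the male mean in both females.

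Among 10 kinases, ubiquitin ligase subunits and a deubiquitinase that act on clock proteins, 2 were lower in females and 0 higher, with a median of -0.11. They were Usp2, a deubiquitinase with a clock-driven transcript (-1.30, adjusted p = 0.0119, limma), and Btrc, the ligase subunit that marks PER proteins for breakdown (-0.92, adjusted p = 0.0276, limma). Leaving out female replicate 1 raised the count to 3, leaving out female replicate 2 lowered it to 0, and each other library left out gave 1. Of 12 genes known to be rhythmic in many tissues 3 were lower, Usp2 again, the cell cycle kinase Wee1 (-0.85, adjusted p = 0.0202, limma) and the glucocorticoid-induced Tsc22d3 (-1.49, adjusted p = 0.0288, limma), with a median of -0.33. For this list 0 were called without female replicate 2, and 1 without male replicate 1 or either castrated library. With no filter or no trend in the prior, limma called 0 of either list, and with only the groups compared 1 of each.

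Other groups of genes also differed between females and males. Of 14 tested hypoxia targets, which the clock factors Bhlhe40 and Bhlhe41 belong to in many cells, 6 were higher in females (Ldha, Pgk1, Bnip3, Car9, Pfkfb3 and Egln1) and 1 lower (Ddit4), and the median of their log2 fold changes was 0.86. Of these, 0 were called without female replicate 2, and 1 higher without male replicate 2 or either castrated library. The 5 suprabasal keratinocyte markers summed to 696 to 889 CPM in the intact males, 1145 to 1466 CPM in the females, and 1127 to 1194 CPM in the castrated ones, and limma called 2 of them (Krt1 and Krtdap) higher in females, 0 of them without female replicate 2 and 1 without male replicate 2 or either castrated library. None of 6 basal markers was called by limma, with 3 log2 fold changes positive and 3 negative. Itgb4 (-0.45, adjusted p = 0.0705, limma) and Col17a1 (-0.57, adjusted p = 0.109, limma) were lower in both females than in every other library. Summed markers of T and innate lymphoid cells were 95.1 to 102 CPM in the intact males, 17.3 to 72.7 CPM in the females, and 75.3 to 153 CPM in the castrated ones, with 0 of 5 tested markers called by limma. Most of this sum was Thy1, at 80.5 and 97.1 CPM in the intact males, 8.90 and 60.4 in the females, and 68.2 and 144 in the castrated ones, and the median log2 fold change of the list was 0.01. Langerhans cell markers summed to 54.4 to 64.4 CPM in the intact males, 69.4 to 85.9 CPM in the females, and 60.6 to 72.3 CPM in the castrated ones with 0 of 5 called. Mfge8 made up most of the difference in that sum, with means of 31.3 CPM in males and 47.0 CPM in females, while Cd207, the defining marker of Langerhans cells, stood at 7.53 and 6.12 CPM (log2 fold change -0.28, adjusted p = 0.568, limma), and the median of the list was -0.04. Of 2 tested macrophage and neutrophil markers limma called Cxcr2, a chemokine receptor of neutrophils, higher in females (2.38, adjusted p = 0.0359), with 0.959 and 0.705 CPM in males and 3.37 and 11.8 CPM in females. This call was lost when any library other than female replicate 1 was left out. The other tested marker, Cd68, had a log2 fold change of 0.03 (adjusted p = 0.962, limma). Of the untested ones, Csf3r had at most 1 read and Lyz2 at most 6 reads in a library. Adgre1 had means of 0.784 CPM in males and 0.333 CPM in females. With no filter or no trend in the prior, limma called 0 of the hypoxia, suprabasal and macrophage and neutrophil lists, and with only the groups compared 1 hypoxia target, 1 suprabasal marker and 0 of the third list. Of 6 fibroblast genes, Col3a1, Lum and Pdgfra had 3 reads or fewer in every library and Col1a1 at most 7. The 2 tested ones were not called by limma in females against males, though both log2 fold changes were negative. Dcn (-0.82, adjusted p = 0.333, limma) had means of 14.25, 7.51 and 5.12 CPM in males, females and castrated males. Col1a2 (-0.60, adjusted p = 0.296, limma) had 4.68, 2.99 and 4.72 CPM. The part of these groups in the values of the members was not tested.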

How the data were processed

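RNA-seq of 6 libraries was compared in 3 pairs of groups. Reads were processed by the authors with STAR 2.7.5a and HTSeq 0.11.1, besides FastQC and Picard, on GRCm38/mm10, per the submitters' processing notes. Strand setting, annotation and scaling were not given in the sources used here. Each deposited value is a score: reads per gene scaled to a total of 20000000 in a library and rounded, as the values themselves show. Dividing by the step between values gave whole reads, a search tested on simulated data. Since the deposited unit is not a count, the planned count test was replaced by limma 3.58.1 (R 4.3.3) on log2(CPM + 0.5), with TMM library sizes, 1 mean per group over all 6 libraries, 3 residual degrees of freedom, a trend in the prior (5.81 degrees of freedom) and two-sided Benjamini-Hochberg adjusted p-values, called below 0.05. This fit was also tested on simulated data. Genes entered with 1.16 CPM, worth 10 reads, in at least 2 libraries and 15 reads in total. All 7 tested members were named by rule, with the genes of the lists called in females against males. Exon lengths are from GENCODE M21 and promoters from RefSeq. The 8 members and the lists were chosen with earlier results of these data known. Alternatives were 8 other settings and each of the 6 libraries left out. The second male library carries the number 3 in its name, and its title was used.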

Additional observations from a re-analysis of the deposited data

How the results depend on the processing

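With 2 libraries a group, calls depended on single libraries. For females against males, 940 genes and 3 members were called. Without a filter and without a trend 103 genes each and 0 members were called, and with only the groups compared 265 and 0. Leaving out 1 library gave 49 (female replicate 2) to 1773 genes (female replicate 1) and 0 to 5 members. Under total reads as library sizes Bhlhe40 was called too (adjusted p = 0.0455, limma). For castrated males against females, 266 genes and 1 member became 33 and 0 without a filter, 59 and 0 without a trend, 560 genes with only the groups compared, and 88 and 0 with voom weights. Leaving out 1 library gave 21 to 1323 genes and 0 to 5 members. For castrated against intact males, 6 genes became 11 with log2(CPM + 2), 2 without a filter and 1 to 74 with a library left out, and 0 members were called under every alternative. Directions turned with a library left out in 5 cases. The range was -0.034 (without castrated male replicate 2) to 0.27 for Bhlhe40 in castrated males against females. In castrated against intact males it was -0.17 to 0.092 (without castrated male replicate 1) for Ciart and -0.24 to 0.15 (without male replicate 2) for Tef. In females against males it was -0.084 to 0.64 for Dbp and -0.00079 to 0.11 for Clock, both lowest without male replicate 1. The cause was not tested.

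Replicate numbers did not pair the libraries: deviations of same-numbered libraries correlated at -0.153 (male and female), -0.0103 (male and castrated male) and 0.194 (female and castrated male). With the replicate block 162 genes and 0 members were called in castrated males against females, and Rora (adjusted p = 0.0442, limma) joined the members called in females against males. Other library sizes shifted the median of all genes to at most 0.0843 on the log2 scale. At this depth Nfil3 could not be compared, at 0.15, -0.14 and -0.29 without a filter in the 3 comparisons (adjusted p = 0.858, 0.99 and 0.694, limma).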

Other observations

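Of the C/EBP factors, bZIP relatives of the PAR family that act in keratinocyte differentiation, 3 were tested and all 3 had a positive log2 fold change in females against males, with a median of 0.33. Cebpa passed the test (0.82, adjusted p = 0.0468, limma) at a mean of 10.7 CPM in males and 19.3 CPM in females, and lost its call whichever library was left out. The hypoxia target with the largest change by limma among those called was Car9, a carbonic anhydrase, at 2.00 (adjusted p = 0.0379). Next came Pfkfb3, a regulator of glycolysis, at 1.45 (adjusted p = 0.0233, limma) and the glycolytic enzyme Pgk1 at 1.36 (adjusted p = 0.0171, limma). Egln1, an oxygen sensor, stood at 1.09 (adjusted p = 0.0301, limma), and the glycolytic enzyme Ldha at 0.95 (adjusted p = 0.0483, limma). Ddit4, an inhibitor of growth signalling that hypoxia and glucocorticoids induce, was lower at -0.94 (adjusted p = 0.0376).

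The genes whose levels over the 6 libraries were most like a member's, by Pearson's r over genes that averaged 5 CPM or more, were Rp2 (0.999), Oplah and Arhgef12 for Ciart, Fgfr1 (0.9997), Blvrb and Acot2 for Bhlhe41, and Zfp40 (0.998), Osbpl5 and Cyp2s1 for Hlf. For Tef they were Zfp612, Sult5a1 and Aldh6a1, for Rora Atf7, Slc6a2 and Taf9b, for Bhlhe40 Vps26a (0.985), Ssbp3 and Flt3l, and for Dbp Akr1e1 (0.996), Tfap2c and Msh6. With 6 points from 3 groups such values are high for many genes, and they describe likeness only.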
